A study of Mus musculus with 6 samples.

Results

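The genes described here encode the proteasome, its activators, its inhibitor and its assembly factors. They were taken as all genes whose symbol is Psma, Psmb, Psmc, Psmd, Psme, Psmf or Psmg followed by a number, that reach 5 CPM (read counts scaled to a common library size) in any library and that are no pseudogene. This gave 47 of the 50 matching symbols, among 24054 genes in the table. All 47 passed the filter on low counts and belong to the 12689 genes tested. Of the 47, 41 are constitutive, meaning that most cells express them, and 5 are the inducible catalytic subunits and activator subunits Psmb8, Psmb9, Psmb10, Psme1 and Psme2. The last, Psme2b, is a retrocopy of Psme2 and was kept apart. Just inside the minimum were Psmg3 at 5.26, Psmg4 at 5.33 and Psmg1 at 8.96 CPM in their highest library. Just outside it were Psmc3ip at 4.72, Psma8 at 4.42 and Psmb11 at 1.48 CPM, of which Psmc3ip is no proteasome subunit.

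RNA came from mouse bone marrow-derived macrophages in 6 libraries. They were grown for 7 days in L929-conditioned medium, which supplies the growth factor that turns marrow cells into macrophages, from C57BL/6 mice and from C57BL/6 mice with a Kindlin3-integrin mutation. Cells were then left untreated or given 50 µg/ml oxidised low-density lipoprotein (oxLDL), the modified particle that macrophages take up in atherosclerotic plaques, for 24 hours. The mutant has 2 untreated and 2 oxLDL libraries, the wild type 1 of each. The design asks how wild-type and mutant macrophages change under oxidative stress. The labels state neither which change the mutant allele carries nor whether the libraries of a group came from separate mice, so each p-value covers just the variation among these 6 samples, which may be technical. In RNA of whole cultures, fewer cells of a type and less RNA per cell cannot be told apart.

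Total counts ran from 11281659 to 24273497 per library. Fermt3, which encodes kindlin-3, measured 239 and 248 CPM in mutant untreated, 404 in wild type untreated, 146 and 154 in mutant oxLDL and 188 in wild type oxLDL. It was lower in the mutant in untreated cells (log2 difference -0.72, edgeR adjusted p = 0.0264). All 10 macrophage markers measured were present in each library, summing to between 2.08e+04 and 3.04e+04 CPM untreated and between 1.02e+04 and 1.96e+04 with oxLDL. Several moved with the treatment. Emr1 was at 4394 to 6193 CPM untreated and 818 to 1098 with oxLDL, Fcgr1, Cd14, Itgam and Csf1r were also lower in every oxLDL library, and Cd68 and Mertk were higher. The part of this in the members' values was not tested. The T cell markers Cd3e and Cd3g were at 0 in each library. The 16 pancreas markers summed to 190, 151 and 256 CPM in mutant oxLDL 1, mutant oxLDL 2 and wild type untreated, and to at most 0.0704 in the other three. The 8 neutrophil markers measured summed to 39.5 CPM in wild type untreated and to between 0.701 and 2.24 elsewhere.

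The 26S proteasome degrades proteins that carry ubiquitin chains. Its barrel-shaped 20S core stacks rings of alpha subunits around rings of beta subunits, and Psmb5, Psmb6 and Psmb7 of the beta ring do the cutting. The 19S cap recognises the chain, removes it and unfolds the substrate with a ring of ATPases. Interferons induce Psmb8, Psmb9 and Psmb10, which replace Psmb5, Psmb6 and Psmb7 in new cores to form the immunoproteasome, whose peptides suit display on MHC class I. Interferons also induce Psme1 and Psme2, the alpha and beta subunits of the PA28 cap. Cells short of proteasome activity raise constitutive subunits through the factor NRF1 (Nfe2l1), and oxidative stress acts on some of them through NRF2 (Nfe2l2). Both factors bind antioxidant response elements.

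Promoter sequence is shown for 6 members, Psmb8 and Psmb9 with the subunits they replace, Psmd8 with the largest rise, and Psme1, the inducible PA28 gene with the less shared transcript (2.9%), so that the letters can be read beside the values. Each is the 100 bases before the start site, 5′ to 3′ on the gene's strand, from RefSeq on GRCm38.p6. They are Psmb5 (chr14:54617996-54618095, minus strand), Psmb6 (chr11:70525257-70525356, plus), Psmd8 (chr7:29180674-29180773, minus), Psmb8 (chr17:34198095-34198194, plus), Psmb9 (chr17:34187331-34187430, minus) and Psme1 (chr14:55578394-55578493, plus). Capitals mark a match to the antioxidant response element core TGACNNNGC in Psmb5 and Psmb6, and to the gamma-activated site TTCNNNGAA in Psmb8.
Psmb5: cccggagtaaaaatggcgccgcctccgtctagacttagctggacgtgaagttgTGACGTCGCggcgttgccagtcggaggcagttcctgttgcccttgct
Psmb6: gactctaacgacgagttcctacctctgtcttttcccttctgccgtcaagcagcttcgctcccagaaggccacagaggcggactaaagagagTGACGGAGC
Psmd8: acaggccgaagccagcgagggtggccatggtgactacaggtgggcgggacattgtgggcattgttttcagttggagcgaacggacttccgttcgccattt
Psmb8: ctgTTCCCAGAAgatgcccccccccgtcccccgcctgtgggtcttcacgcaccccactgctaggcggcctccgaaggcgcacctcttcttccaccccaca
Psmb9: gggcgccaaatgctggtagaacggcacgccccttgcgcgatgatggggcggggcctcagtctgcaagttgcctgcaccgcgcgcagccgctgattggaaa
Psme1: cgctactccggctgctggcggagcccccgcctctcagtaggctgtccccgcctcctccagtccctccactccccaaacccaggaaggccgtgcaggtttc

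Windows of 300 bases, from 250 before to 50 after the start, were available for 40 of the 47 members. On either strand TGACNNNGC was in the windows of 6 of these 40 genes (Psmb5, Psmb6, Psmc6, Psmd12, Psmd9 and Psme4), and in 12.4% of all 32851 windows. The match began at position -47 from the start in Psmb5 and at -9 in Psmb6. The core of the interferon-stimulated response element, GAAA followed by any 2 bases and GAAA again, was in 5 of the 40 (Psmb3, Psmd4, Psmd9, Psme1 and Psmg4) and in 3.44% of all windows. In Psme1 it lay just after the start, outside the bases printed above. TTCNNNGAA was in 3 of the 40 (Psmb8, Psmd2 and Psmg1) and in 8.3% of all windows, and the Psmb8 match began at -97. CCAAT was in 13 of the 40, Psmb9 among them, and in 37.4% of all windows. No window of a member held TGACTCAGC, a spelled-out form that TGACNNNGC also covers, the ETS site GCGGAAGTG or the kappa B site, which 0.454%, 1.03% and 0.155% of all windows held. A match is a description of these letters and not a bound site.

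In untreated cells the members spanned a wide range of RNA. Scaled per kb of transcript, Psma6 of the alpha ring had the highest median over the 3 untreated libraries, 159 CPM per kb, followed by Psme1 at 131, Psmb2 at 117, Psmb6 at 110 and Psmd8 at 108. The lowest were Psmg3 at 4.56, which helps build the core, and Psmf1 at 5.82, which encodes the inhibitor PI31. Psmb8 stood at 65.1 CPM per kb and its constitutive partner Psmb5 at 31.4, whereas Psmb9 (15.8) and Psmb10 (20.1) were below Psmb6 and Psmb7 (60.6). With oxLDL the highest median was that of Psmd8, 297 CPM per kb, followed by Psmb6 at 192.

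With oxLDL all 5 inducible genes fell, and a part of the constitutive genes rose, mostly those of the 19S cap. Across both genotypes, 14 of the 47 members rose and 9 fell at a false discovery rate under 0.05 in edgeR's quasi-likelihood test, where 19.1% of all tested genes rose and 21.4% fell (40.5% either way). Of the 10311 tested genes that, like the members, reach 5 CPM in any library, 2273 rose and 2406 fell. The falls of the inducible genes ran from 1.66-fold to 3.1-fold. Of the 41 constitutive genes 14 rose, 3 fell and 24 did not pass. The rises lay mostly in the 19S cap, where 11 of 17 genes rose and none fell. That count was 8 without either wild-type library, 7 without mutant oxLDL replicate 1, and 6 without mutant oxLDL replicate 2 or either mutant untreated library. The members that rose numbered between 9 and 11 in these fits, lowest without mutant untreated replicate 1 or mutant oxLDL replicate 2. Calls over all genes tested dropped too, from 5134 to between 3480 and 4233 without any 1 of the mutant libraries. With all 6 libraries kept, the 19S count was 9 under RLE scaling, without a filter and with a replicate block, and 8 by DESeq2. In the constitutive 20S core 2 of 14 rose and 2 fell. The median log2 fold change was -0.93 over the 5 inducible genes, 0.30 over the 19S genes, 0.04 over the constitutive core genes and 0.01 over all genes tested. The share of all 47 that fell is near that of all genes tested.

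**Figure D1:**
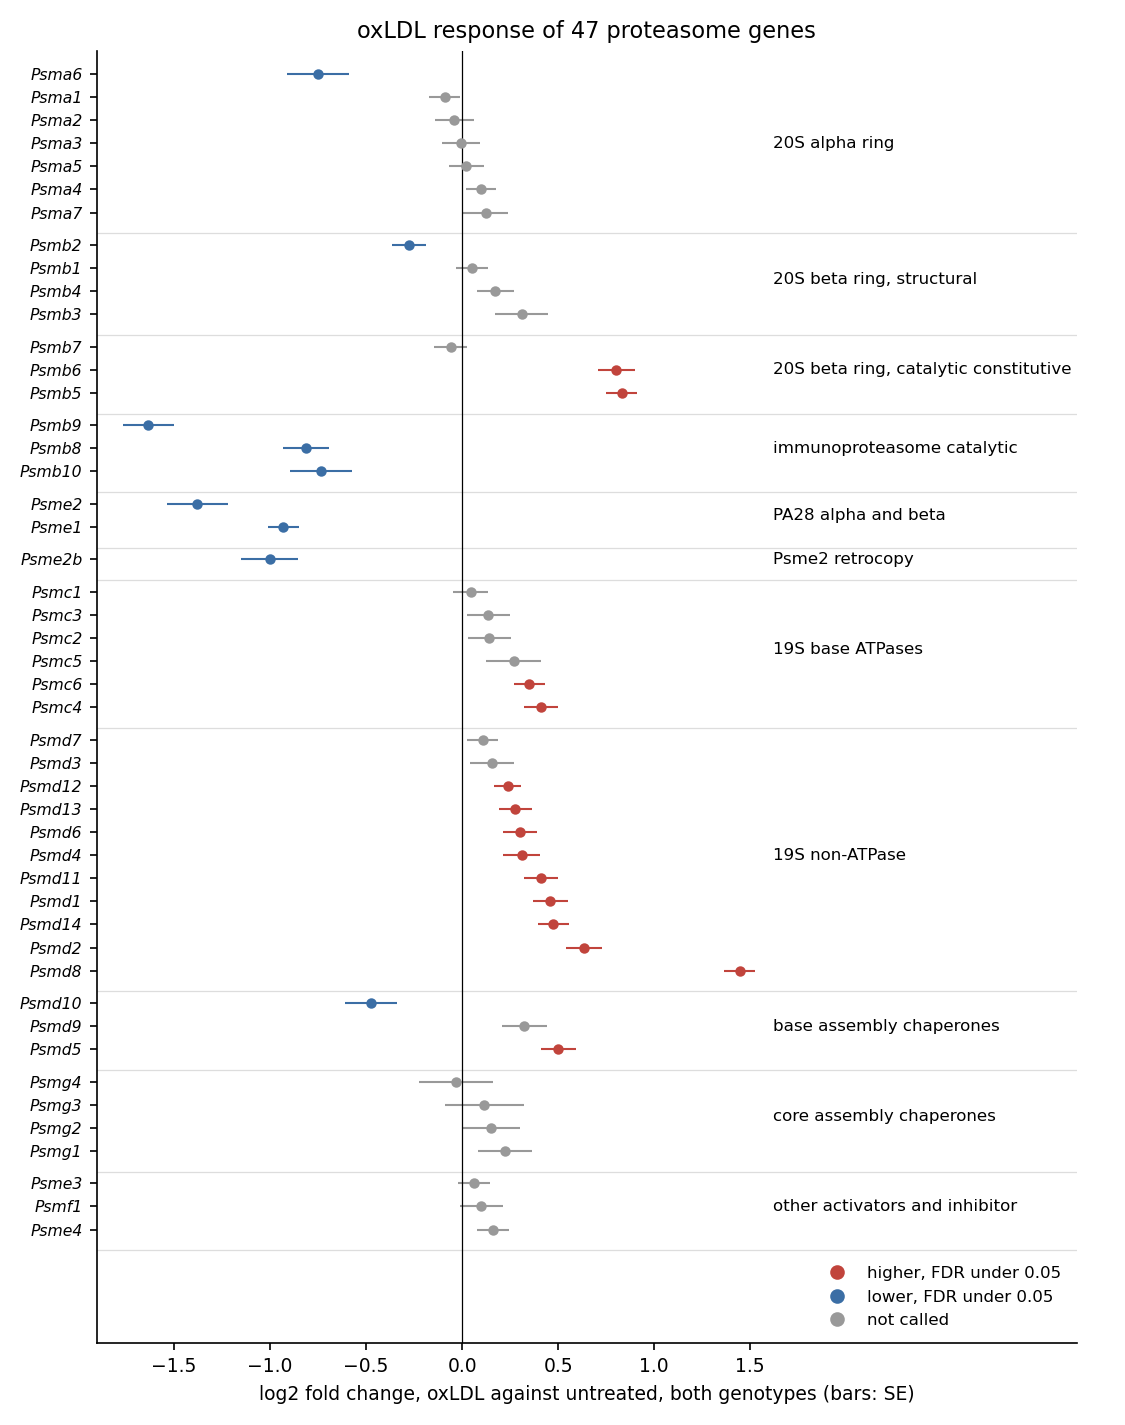
log2 fold change of each of the 47 members, oxLDL against untreated over 3 and 3 libraries, with SE bars, grouped by role. Red points rose and blue points fell at a false discovery rate under 0.05. The inducible and PA28 genes lie left of 0, between -1.63 and -0.73, and all 19S genes lie right of it.

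Psmb9, the inducible partner of Psmb6, measured 21.4 and 20.1 CPM in mutant untreated, 26.2 in wild type untreated, 6.52 and 7.85 in mutant oxLDL and 7.43 in wild type oxLDL. Every untreated library was above every oxLDL library, with no overlap. The log2 fold change was -1.63 ± 0.13 (SE; edgeR adjusted p = 0.00031), a 3.1-fold fall, and 8.22% of its transcript is shared with Tap1. Psmb8, the inducible partner of Psmb5, measured 96.0, 106 and 132 CPM in mutant untreated 1 and 2 and wild type untreated, and 54.5, 68.8 and 67.1 in mutant oxLDL 1 and 2 and wild type oxLDL. Again the lowest untreated library was above the highest oxLDL library. The change was -0.81 ± 0.12 (SE; edgeR adjusted p = 0.00278). Psmb10, the partner of Psmb7, measured 26.4, 20.6 and 34.1 CPM untreated and 15.1, 17.1 and 16.1 with oxLDL, in the same order of libraries. The groups did not overlap, although the mutant untreated libraries differed more from each other than the oxLDL libraries did. Its change of -0.73 ± 0.16 (SE; edgeR adjusted p = 0.0125) lost its call without mutant untreated replicate 1 (adjusted p = 0.0547).

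Psme1, the alpha subunit of PA28, measured 145, 134 and 189 CPM in mutant untreated 1 and 2 and wild type untreated. With oxLDL it measured 73.1 and 77.3 in the mutant and 96.1 in the wild type. The wild-type library was the highest of its treatment both times, and the treatments did not overlap. The change was -0.93 ± 0.08 (SE; edgeR adjusted p = 0.000364). Psme2, the beta subunit, measured 84.4, 102 and 132 CPM untreated and 37.3, 45.2 and 39.1 with oxLDL in the same order. It fell 2.6-fold, by 1.38 ± 0.16 on the log2 scale (SE; edgeR adjusted p = 0.00111), without overlap. Psme2b had a log2 fold change of -1.002 ± 0.15 (SE; edgeR adjusted p = 0.00279), but 60.2% of its transcript and 46.9% of that of Psme2 are shared with other genes, so how reads were divided between the copies makes each value uncertain.

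The third cap protein of the same family, Psme3, which encodes PA28 gamma of the nucleus, did not pass (log2 fold change 0.06 ± 0.08 SE, edgeR adjusted p = 0.602). Neither did Psme4, the single-chain activator PA200 (0.16 ± 0.08, adjusted p = 0.166), nor Psmf1 (0.10 ± 0.11, adjusted p = 0.517). In each of the 5 inducible genes wild type untreated had the highest level of all 6 libraries. That library also held most of the neutrophil marker RNA, and the part of those cells in these values was not tested. Without it the genotype term takes up the remaining wild-type library, so the treatment effect rests on the mutant libraries alone. There all 5 inducible genes were lower too, with log2 fold changes from -1.55 (Psmb9) to -0.56 (Psmb10). This repeats the mutant response given below and is no separate check.

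**Figure D2:**
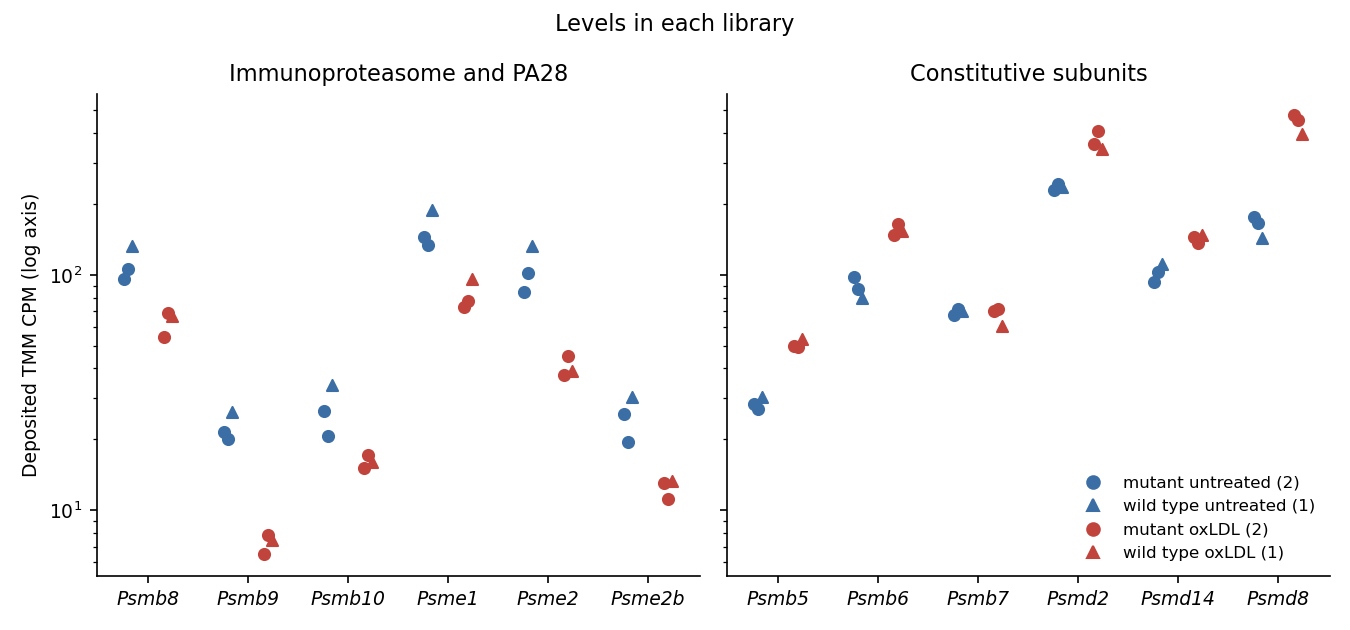
CPM on a log axis in each of the 6 libraries for the inducible genes with Psme2b (left) and for 6 constitutive genes (right). The 6 are Psmb5, Psmb6, Psmb7, Psmd2, Psmd14 and Psmd8 and do not stand for all 41 constitutive genes. Of the 41, 14 rose, 3 fell and 24 did not pass. Circles are mutant and triangles wild type libraries, blue untreated and red oxLDL. Blue and red points are apart in every gene plotted other than Psmb7, with red below in the left panel and above in the right.

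Psmb5, the chymotrypsin-like subunit of the constitutive core, measured 28.2 and 26.97 CPM in mutant untreated, 30.1 in wild type untreated, 49.9 and 49.5 in mutant oxLDL and 53.3 in wild type oxLDL. The 3 oxLDL libraries were all above the 3 untreated ones. It rose by 0.83 ± 0.08 on the log2 scale (SE; edgeR adjusted p = 0.000611), or 1.78-fold, and 36.8% of its transcript is shared with other annotated genes, 3.9% with genes of this table. Psmb6, the caspase-like subunit, measured 98.0, 87.4 and 79.5 CPM in mutant untreated 1 and 2 and wild type untreated, and 147, 164 and 154 in mutant oxLDL 1 and 2 and wild type oxLDL. It rose by 0.80 ± 0.10 (SE; edgeR adjusted p = 0.00129), again without overlap. Psmb7, the trypsin-like subunit, measured 67.3, 71.3 and 70.3 CPM untreated and 70.1, 71.3 and 60.8 with oxLDL. Its groups overlapped and it did not pass (-0.06 ± 0.09 SE, edgeR adjusted p = 0.624). Thus 2 of the 3 constitutive catalytic genes rose while the inducible partner of each of the 3 fell.

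The ratio of each inducible subunit to its partner was taken within each library, which removes differences in scaling between libraries. The log2 ratio Psmb8/Psmb5 was 1.75, 1.96 and 2.12 in mutant untreated 1 and 2 and wild type untreated, and 0.13, 0.47 and 0.33 in mutant oxLDL 1 and 2 and wild type oxLDL. All 6 libraries held more counts of Psmb8 than of Psmb5. Per kb of transcript the ratio lay between 1.88 and 2.42 untreated and between 0.603 and 0.768 with oxLDL. Psmb9/Psmb6 was -2.17, -2.10 and -1.59 untreated and -4.39, -4.30 and -4.28 with oxLDL in the same order. This was the widest separation of the 3 pairs. Psmb10/Psmb7 was -1.34, -1.77 and -1.03 untreated and -2.18, -2.03 and -1.89 with oxLDL, the closest pair but without overlap.

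The mean log2 ratio changed by -1.63 for Psmb8/Psmb5 (3.1-fold), -2.37 for Psmb9/Psmb6 (5.18-fold) and -0.65 for Psmb10/Psmb7 (1.57-fold). Each exact two-sided permutation test of 3 against 3 libraries gave p = 0.1, the smallest this design allows, and 0.1 after adjustment over the 3 pairs. As a share of the pair's summed CPM, Psmb9 made up between 17.9% and 24.8% untreated and between 4.25% and 4.62% with oxLDL. Psmb8 made up between 77.3% and 81.4% untreated and between 52.2% and 58.2% with oxLDL. RNA ratios do not measure which subunit is built into the particle.

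**Figure D3:**
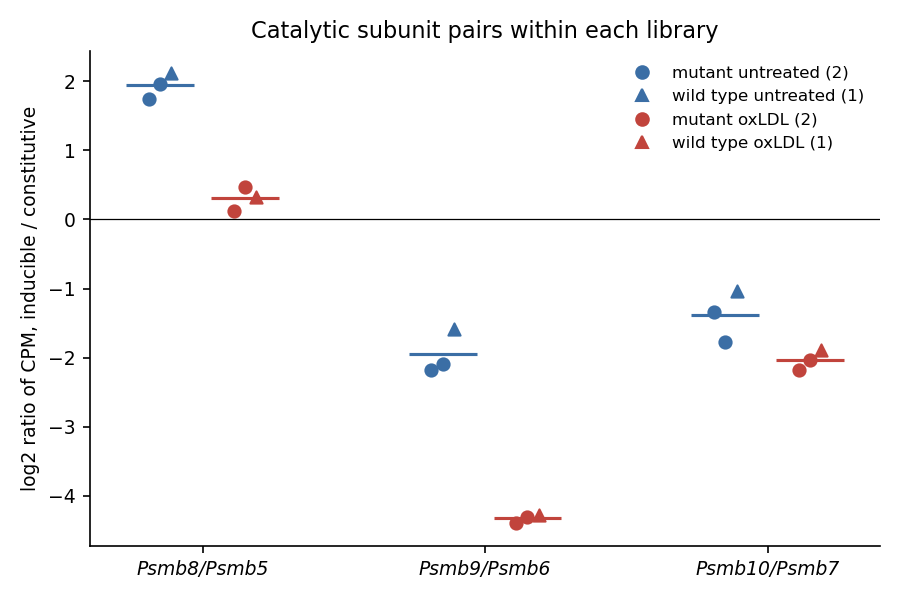
log2 ratio of CPM of each inducible subunit to its constitutive partner in every library, with the mean of 3 untreated (blue) and 3 oxLDL (red) libraries as a bar. Circles are mutant and triangles wild type. The red points lie below the blue in all 3 pairs, and the Psmb8/Psmb5 ratio comes close to 0.

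In the remaining 20S core few genes moved. The alpha ring, which gates the entry of the core, had 1 of 7 genes called. Psma6 measured 119, 166 and 209 CPM in mutant untreated 1 and 2 and wild type untreated, and 93.7, 99.0 and 97.8 in mutant oxLDL 1 and 2 and wild type oxLDL. The untreated libraries were all higher but spread widely, and the fall of 0.75 ± 0.16 (SE; edgeR adjusted p = 0.0113) lost its call without mutant untreated replicate 2 (adjusted p = 0.064). The other alpha genes did not pass, with log2 fold changes from -0.09 (Psma1) to 0.12 (Psma7). Among the structural beta genes Psmb2 fell by 0.28 ± 0.09 (SE; edgeR adjusted p = 0.0437), a call that was lost without any 1 of the 6 libraries (adjusted p up to 0.149), without a filter and with a replicate block (adjusted p = 0.0568). Psmb1, Psmb3 and Psmb4 did not pass, at 0.05, 0.31 and 0.17. At least 10% of the transcript is also shared with other annotated genes in Psma3, Psma4, Psma5, Psmb3 (33.1%), Psmb7 (24.1%), Psmd11, Psmd13 and Psmg3, whose values are less certain for that reason.

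Psmd8, which encodes the lid subunit Rpn12, had the largest rise of the 47. It measured 176 and 166 CPM in mutant untreated, 143 in wild type untreated, 476 and 457 in mutant oxLDL and 397 in wild type oxLDL. The oxLDL libraries were all above the untreated ones, and the wild-type library was the lowest within each treatment. The log2 fold change was 1.45 ± 0.08 (SE; edgeR adjusted p = 0.000109), or 2.72-fold. The 19S member with the next largest change, Psmd2, a large scaffold subunit of the base (Rpn1), measured 229.5, 243 and 237 CPM in mutant untreated 1 and 2 and wild type untreated. With oxLDL it measured 358, 411 and 343. It rose 1.55-fold without overlap, by 0.64 ± 0.09 (SE; edgeR adjusted p = 0.00278), and 14.4% of its transcript is shared with other annotated genes and none with genes of this table.

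Psmd14, the deubiquitinase Rpn11 that removes the chain, measured 93.4, 103 and 111 CPM untreated and 145, 136 and 148 with oxLDL in the same order, without overlap. It rose by 0.47 ± 0.08 (SE; edgeR adjusted p = 0.00467). Psmd1, the other large scaffold of the base (Rpn2), rose by 0.46 ± 0.09 (SE; edgeR adjusted p = 0.00853). Psmd11, Psmd6, Psmd12 and Psmd13 of the lid and the ubiquitin receptor Psmd4 rose by between 0.24 and 0.41. With all 6 libraries kept, DESeq2 did not call Psmd4, Psmd12 or Psmd13. RLE scaling lost the calls of Psmd4 and Psmd13, a replicate block those of Psmd4 and Psmd12, and no filter those of Psmd12 and Psmd13. Leaving out any single library removed the calls of Psmd6, Psmd12 and Psmd13. That of Psmd4 was lost without any 1 of the mutant libraries. The largest adjusted p of these 4 genes over the alternatives lay between 0.11 and 0.151. In all, 9 of the 11 non-ATPase genes rose, or 5 without any 1 of the mutant libraries, and Psmd3 (0.16, edgeR adjusted p = 0.316) and Psmd7 (0.11, adjusted p = 0.342) did not pass.

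Of the 6 ATPase genes, whose products form the unfolding ring, 2 rose. Psmc4 went from 64.7, 69.4 and 72.6 CPM in mutant untreated 1 and 2 and wild type untreated to 85.3, 97.2 and 94.3 in mutant oxLDL 1 and 2 and wild type oxLDL (0.41 ± 0.09 SE, edgeR adjusted p = 0.0111). Psmc6 rose by 0.35 ± 0.08 (SE; edgeR adjusted p = 0.0155), a call lost without either mutant untreated library or mutant oxLDL replicate 2 (adjusted p up to 0.0606). The other four had positive log2 fold changes that did not pass, from 0.05 (Psmc1) to 0.27 (Psmc5).

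Assembly factors did not move together. Psmd5, a chaperone that holds ATPase subunits before the base is built, rose by 0.50 ± 0.09 (SE; edgeR adjusted p = 0.00616). Psmd10 (gankyrin), a chaperone of the same step, fell by 0.48 ± 0.13 (SE; edgeR adjusted p = 0.0306), a call lost without any 1 of the 4 mutant libraries (adjusted p from 0.0626 to 0.108). It measured 27.1, 32.5 and 24.5 CPM in mutant untreated 1 and 2 and wild type untreated, and 18.8, 20.5 and 21.5 in mutant oxLDL 1 and 2 and wild type oxLDL. Psmd9, the third, did not pass (0.32, adjusted p = 0.067). None of the core chaperones Psmg1, Psmg2, Psmg3 and Psmg4 passed, with log2 fold changes from -0.03 to 0.22. Pomp, the maturation factor of the core, did not pass either (-0.15, adjusted p = 0.427).

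Counted without a model, 17 members had all 3 oxLDL libraries above all 3 untreated ones, and 9 had them all below. Over all genes tested these shares were 25% and 22.8%. The 17 were all constitutive, 10 of them in the 19S cap. The 9 were the 5 inducible genes, Psme2b and the constitutive genes Psma6, Psmb2 and Psmd10.

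The response was also measured in each genotype. In the mutant, with 2 libraries on each side, 11 members rose and 8 fell, where 35.6% of all genes were called (16.5% higher and 19.1% lower). Of the 10311 tested genes that, like the members, reach 5 CPM in any library, 1965 rose and 2189 fell. The called share of the members is near that of these genes. All 5 inducible genes fell, by between 0.56 (Psmb10) and 1.54 (Psmb9) on the log2 scale. Psmb10 lost this call by DESeq2 (adjusted p = 0.0777), without mutant oxLDL replicate 1 (0.103) and without mutant untreated replicate 1, where its log2 fold change was -0.353 (0.212). Psmb8 lost it without mutant untreated replicate 2 (0.0554). The count was 12 without mutant untreated replicate 1 and 11 without mutant untreated replicate 2. It was 19 in the 4 mutant libraries alone, without either wild-type library.

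In the wild type there is 1 library per treatment and no test, so members were described by a 1.5-fold difference after 2 CPM were added, which understates low genes. Psmd8 (2.75-fold), Psmb6 (1.91-fold) and Psmb5 (1.72-fold) were higher with oxLDL. The 5 inducible genes, Psme2b and Psma6 were lower, by 1.94-fold for Psmb8 to 3.26-fold for Psme2. Of 9840 genes with 5 CPM in either library, 14.4% were higher and 17.6% lower by this measure. Of the 17 genes of the 19S cap, Psmd8 was the 1 past 1.5-fold. Of these 17, 13 had a positive and 4 a negative log2 fold change in the wild type, with a median of 0.25. Over the 47 members the log2 fold changes of mutant and wild type, which come from separate libraries, had Pearson r = 0.943 and Spearman rho = 0.837, and 35 had the same sign. Over all 12689 genes tested the values were 0.817 and 0.762, with 9806 of the same sign. These describe genes, which are not independent replicates.

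**Figure D4:**
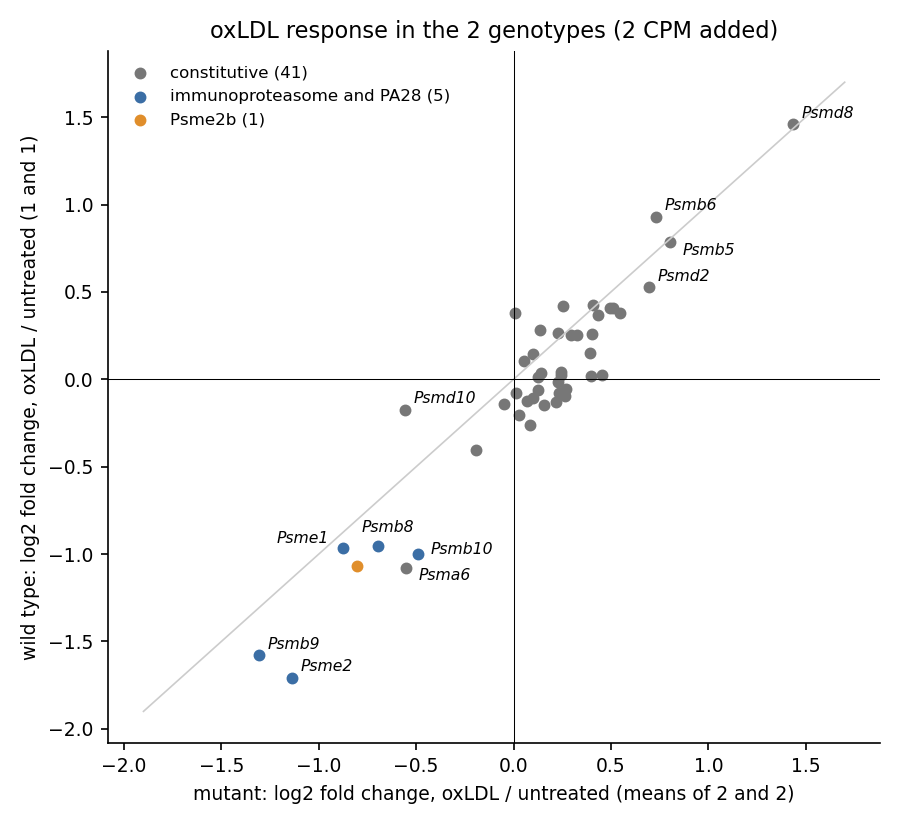
log2 fold change with oxLDL in the mutant (x axis, means of 2 and 2 libraries) against the wild type (y axis, 1 and 1 library) for the 47 members, with 2 CPM added. The grey line marks equal change. Psmd8, Psmb5 and Psmb6 lie at the upper right and the inducible genes at the lower left in both genotypes.

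The part of the pancreas marker RNA, high in both oxLDL libraries of the mutant and in the untreated library of the wild type, in the members' values was not tested.

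Between genotypes few differences passed. Across treatments none of the 47 members did in edgeR's test, where 4.05% of all genes were called. At an unadjusted p under 0.05 there were 6 members, where 24.4% of all genes were. DESeq2 called 3 members, all lower in the mutant (Psmc1, Psme1 and Psme4). The smallest adjusted p was that of Psme1, 0.0524, with a log2 difference, mutant against wild type, of -0.39 ± 0.08 (SE). The 5 inducible genes had values from -0.39 to -0.20, without a call. In untreated cells 1 member was called, where 7.06% of all genes were. Psmc1, an ATPase of the base, measured 116 and 113 CPM in mutant untreated and 168 in wild type untreated, with a log2 difference of -0.54 ± 0.10 (SE; edgeR adjusted p = 0.0401). With oxLDL it measured 131 and 124 in the mutant and 152 in the wild type. Its call was lost without either mutant untreated library, and it rests on 1 wild-type library that also carried neutrophil and pancreas marker RNA, whose part was not tested.

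In oxLDL-treated cells no member was called, where 0.481% of all genes were, and DESeq2 called none. At an unadjusted p under 0.05 there was 1 member, where 14.3% of all genes were. For the interaction, the difference between the oxLDL responses of the genotypes, edgeR called no member (0.489% of all genes) and DESeq2 called none. No member was at an unadjusted p under 0.05, where 11% of all genes were. The smallest adjusted p of the interaction was 0.478 for Psme2, whose fall was smaller in the mutant by 0.57 ± 0.25 on the log2 scale (SE). Missing the threshold here does not show that the responses were alike, since the wild type has 1 library per treatment.

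Genes around the proteasome were counted from lists of related pathways, to be read against the 19.1% of all tested genes that rose and the 21.4% that fell. For the first 3 lists the called genes, 4 of 10, 7 of 16 and 4 of 11, are near the 40.5% of all genes called, so the counts are no result about the lists. Of 10 proteins that bind the particle, 3 rose and 1 fell with oxLDL across genotypes. Those that rose were Adrm1 (0.50, edgeR adjusted p = 0.0206), the ubiquitin receptor Rpn13, whose transcript is 72.5% shared with other annotated genes, AI314180 (0.42) and Txnl1 (0.32). Akirin2, which carries proteasomes into the nucleus, fell by 0.44 (adjusted p = 0.00736). Of 16 ubiquitin genes and shuttle factors 6 rose and 1 fell, led by Zfand2a (1.196, adjusted p = 0.000835), a stress-induced partner of the 19S cap, then Ubqln4 (0.53), Ubqln2 (0.44) and Nploc4 (0.37).

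Of 11 regulators of proteasome genes 3 rose and 1 fell. The RNA of Nfe2l1 (0.03, edgeR adjusted p = 0.841) and Nfe2l2 (0.21, adjusted p = 0.238) did not pass. Foxo4 (0.87), Mafg (0.59) and Mafk (0.81) rose, and small Maf proteins are the partners with which NRF1 and NRF2 bind DNA. Ddi2, the protease that releases NRF1, fell by 0.29 (adjusted p = 0.0291), with 17.7% of its transcript shared. All 12 NRF2 target genes rose, with a median log2 fold change of 1.99, among them Sqstm1 (2.06, 17.2% shared), Gsr (1.48), Gclm (1.53) and G6pdx (1.02).

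On the side of the inducible genes, 5 of 14 genes of MHC class I peptide loading fell and none rose across genotypes. That is near the 40.5% of all tested genes called either way, so the count is no result about the list. In the mutant 3 fell and H2-D1, a class I heavy chain named after its value was seen, rose (0.83, edgeR adjusted p = 0.0379). Tap1, the peptide transporter whose gene lies next to Psmb9, measured 118 and 111 CPM in mutant untreated, 118.5 in wild type untreated, 42.8 and 49.4 in mutant oxLDL and 34.3 in wild type oxLDL. The groups did not overlap and it fell by 1.48 ± 0.12 (SE; edgeR adjusted p = 0.000365), with 4.57% of its transcript shared with Psmb9. Tapbp (-1.05, 17.2% shared), Nlrc5 (-0.65) and H2-Q4 (-0.67, 21.7% shared) were lower as well. Of 16 genes of interferon signalling 12 fell and none rose across genotypes. Among them were Irf7 (-3.98), Irf9 (-1.64) and Stat2 (-2.01), and Irf1, a factor known to drive Psmb9 and Tap1, fell by 1.23 ± 0.11 (SE; edgeR adjusted p = 0.00043). In the mutant 10 of the 16 fell and Jak1, likewise named after its value was seen, rose (0.40, edgeR adjusted p = 0.0247). These lists share the libraries of the members and were not tested as sets.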

How the data were processed

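Poly(A) RNA of 6 samples was sequenced with a stranded kit as paired ends, per the labels' protocols. Reads were processed with Bowtie2 2.1.0, RSEM 1.2.15 and edgeR, per the submitters' processing notes. Those name hg19 although the symbols are of mouse, so which build the counts rest on could not be settled. The authors deposited RSEM expected counts and a TMM-scaled signal, per the submitters' processing notes. Within a tolerance of 1e-06 the deposited signal steps in whole reads for 100% of values, and at least 99.89% equal the rounded expected counts. Levels are this signal, written as CPM, and differ from CPM computed anew by at most 0.713% for the members.

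Expected counts were rounded, and 12689 of 17143 genes with any count passed filterByExpr. They were tested with edgeR 4.0.16 under R 4.3.3 (glmQLFTest), with TMM factors and Benjamini-Hochberg adjustment over all of them. The same test on the recovered reads was added as an alternative after the files were seen, and called 5134 genes for oxLDL across genotypes, as many as the rounded counts did. Effects across groups came from a model with genotype and treatment as additive terms. A model of 4 group means gave those within groups and the interaction, with the single wild-type libraries assumed to vary like the mutant pairs. Each SE was derived from the change and its F statistic. Partner ratios used 0.5 CPM added. Shared sequence is the share of a transcript's 75-base stretches found in other mouse genes. Alternatives were RLE factors, DESeq2 1.42.0, no filter, a replicate block, other pseudocounts and leaving out each library. Without either wild-type library the oxLDL effect across genotypes rests on the mutant libraries alone, so these fits are no separate checks. The tests were also run on simulated counts with set oxLDL changes and no genotype effect, and the outcome is not given here. That run cannot show the power for genotype differences or the interaction. The members and gene lists were chosen with earlier results of these data known. Named genes were all members and at most 4 per related list by smallest p, plus Nfe2l1, Nfe2l2, Irf1, Tap1, Pomp and Fermt3. Some genes that this rule covers are left out of the text.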

Additional observations from a re-analysis of the deposited data

How the results depend on the processing

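The count of members called for oxLDL across genotypes was 23, between 20 and 21 under the other scaling, DESeq2, no filter and the replicate block, and between 15 and 19 without each replicate, lowest without mutant untreated replicate 1. In the mutant it was 19, with 16 by DESeq2, 22 without a filter and 11 to 19 without each replicate. For genotype across treatments it was 0, with 3 by DESeq2, 2 without a filter and 0 to 1 without each replicate. For genotype in untreated cells it was 1, with 6 without a filter and 0 to 1 without each replicate. Over all genes tested, calls for oxLDL across genotypes also dropped without any 1 of the mutant libraries, from 5134 to between 3480 and 4233. The cause of these differences was not tested. Of the 23 members, 14 were called under every alternative, and of the 19, 8 were. No called member changed direction. Psmb7 (-0.100 to 0.017) and Psmc1 (-0.004 to 0.145), neither called, changed sign when some libraries were left out. The partner ratios kept their direction, from -1.726 to -1.540 for Psmb8/Psmb5, -2.484 to -2.191 for Psmb9/Psmb6 and -0.848 to -0.480 for Psmb10/Psmb7.

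The replicate numbers of the mutant libraries are shared between treatments, but no label says that they mark the same animal, and with 2 pairs (r = 0.204 of their deviations) they do not establish pairing. With a replicate block, 23 members were called in the mutant and 5 for genotype in untreated cells (Psma2, Psma6, Psmb8, Psmc1 and Psme2), and the exact test of each partner ratio gave p = 0.25, the smallest that 3 pairs allow. The wild type has 1 library per treatment, and the members of lowest level, Psmg3 and Psmg4, had the largest SE (0.21 and 0.19).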
